A study of Mus musculus with 12 samples.

Results

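The comparison described here set kidneys of mice that had received both insults of the study, a high-fat diet and ischemia-reperfusion injury of the liver (hIRI), against kidneys of mice that had received neither. Its members were the 3 libraries named for a high-fat diet with IRI and the 3 named for a normal diet with sham surgery, which are 6 of the 12 kidney libraries of the series, and they were compared across all 14091 genes of the count table. The mice were C57BL6 males that from 10 weeks of age ate either a diet rich in fat and sucrose (HFD, with 12.6% protein, 29% fat and 46.2% carbohydrate) or a normal diet (ND, with 20% protein, 10% fat and 70% carbohydrate) for 12 weeks. In the HFD + hIRI group blood flow to 2 lobes of the liver, the right median and the left lateral, was then closed off for 60 min, and kidneys were taken at 6 h. The ND + sham mice were opened in the same way and their vessels were left free, so these kidneys came from mice that had been operated on and were not untouched. Whole kidney tissue was used, and each library was taken as 1 mouse, since the labels give 3 mice per group. The groups differed in diet and in surgery at once, so the effects of each cannot be told apart in this comparison alone. Levels in the remaining groups, ND + hIRI and HFD + sham with 3 libraries each, are therefore given beside it where they help to place a value.

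Clamping and reopening the vessels of the liver releases cytokines, damaged cell contents and oxidants into the blood, and the kidney is among the organs injured at a distance. The proximal tubule, which reabsorbs most of the glomerular filtrate and burns fatty acids to do so, is the segment most often damaged. Injured tubule cells switch on Sox9, secrete lipocalin 2 and osteopontin and lose transport proteins. IL-6 family cytokines act through STAT3 and C/EBP beta to drive acute phase proteins, and NF-kB carries signals of the TNF and Toll-like receptors.

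The 6 libraries held 22313300 to 28970586 counted reads, within the 20874584 to 29451344 of the whole series. Kidney identity was plain in both groups. Kap, the androgen-regulated protein of the proximal tubule, measured 15286 to 27451 CPM (counts per 1000000 reads of the TMM-scaled library) in ND + sham and 11468 to 16494 CPM in HFD + hIRI, and Umod, made by the thick ascending limb, 3654 to 4799.7 CPM and 4252 to 5656 CPM. The HFD + hIRI kidneys differed far more among themselves than the ND + sham kidneys did. On the first principal component of these 6 libraries, which held 72.4% of the variance, the ND + sham libraries lay between -47.7 and -44.8, whereas HFD + hIRI replicates 1, 2 and 3 lay at 89.6, 36.0 and 12.0. Pairs of libraries within ND + sham differed by a chi-square per gene of 35.5 to 47.8, and pairs within HFD + hIRI by 34.2 to 163, so no pair was a repeated library. All libraries carry 1 batch tag in the labels. Their names hold numbers that split into 2 runs, the lower with 4 libraries and the higher with 8. ND + sham replicate 1 belongs to the lower run and the other 5 libraries compared to the higher. The sources used here do not say what the numbers stand for.

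HFD + hIRI kidneys showed a broad change of their RNA, with genes of injury, inflammation and stress at one end and genes of transport and cilia at the other. With edgeR's quasi-likelihood test at an adjusted p (Benjamini-Hochberg over all genes) under 0.05, 2698 of 14091 genes (19.1%) were higher in HFD + hIRI than in ND + sham and 2297 (16.3%) were lower. The other 9096 genes were not called, and 6679 genes had an unadjusted p under 0.05. A fold of at least 2 was reached by 884 of the higher and 853 of the lower genes, and a fold of at least 8 by 104 and 40. All 3 HFD + hIRI libraries lay above all 3 ND + sham libraries for 3490 genes (24.8%) and below them for 3438 genes (24.4%), and 2590 of the higher and 2250 of the lower calls were of this kind. The median log2 fold change over all genes was 0.004. In tissue RNA, fewer cells of a type and less RNA in each cell cannot be told apart, which holds for every fall below.

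The number of called genes depended on single libraries. It was 1644 higher and 1597 lower without HFD + hIRI replicate 1, 1665 and 1440 without ND + sham replicate 1, 1796 and 1574 without ND + sham replicate 2, and 1542 and 1361 without ND + sham replicate 3. In the 8 libraries of the higher run alone, 176 genes were higher and 178 lower. With library totals in place of TMM scaling, the median gene moved to -0.17 and 31.8% of the calls were higher, against 54.0% in the main analysis and 42.3% with upper quartile scaling, so small changes are relative to the TMM scaling. Of the 181 called genes named in the text, 176 kept the call with library totals, 164 with only the 6 libraries and 77 in the 8 libraries of the higher run.

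**Figure D1:**
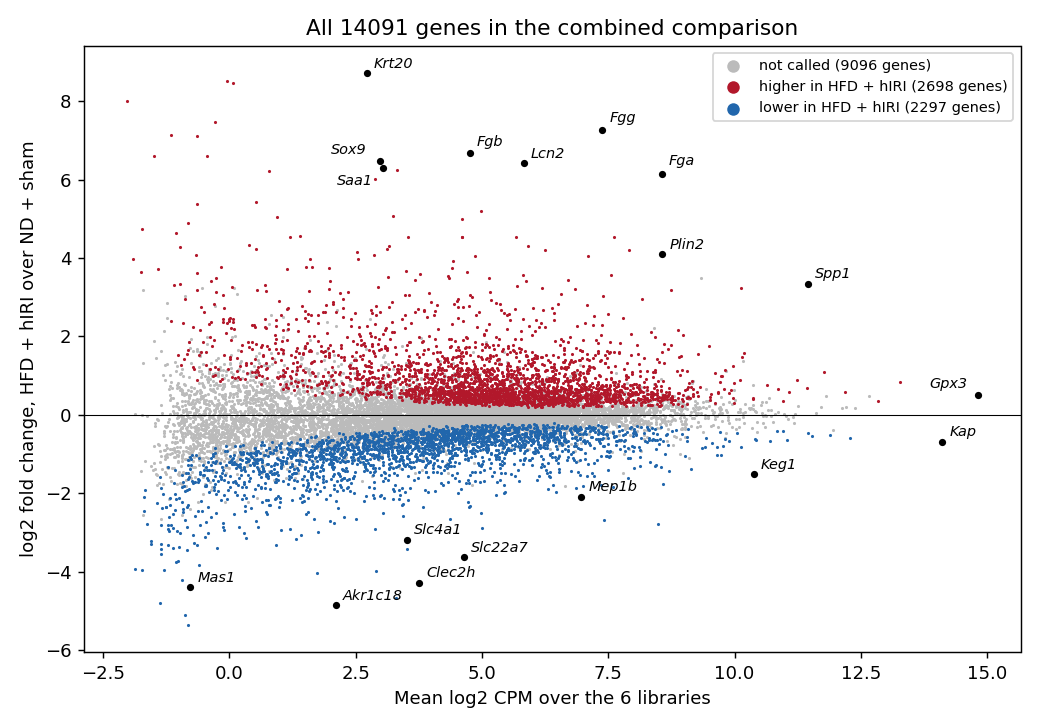
Mean log2 CPM over the 6 libraries (horizontal) against the log2 fold change of HFD + hIRI over ND + sham (vertical), 1 point per gene. Red points are the 2698 genes called higher, blue points the 2297 called lower and grey points the 9096 not called, and black points carry the names of genes described in the text, with Krt20 at the top and Akr1c18 the lowest of them.

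The genes that rose most coded for fibrinogen, acute phase proteins and products of injured tubules. All 3 chains of fibrinogen, the clotting protein that the liver normally supplies to the blood, were among the 10 largest rises. Values are given in the order of replicates 1, 2 and 3, and a log2 fold change stands with its standard error (SE). Fga (chromosome 3 from 83026153 to 83033617 in mm10) measured 38.4, 60.6 and 38.7 CPM in ND + sham and 4161, 3291 and 2282 CPM in HFD + hIRI, a log2 fold change of 6.14 ± 0.82 (SE, adjusted p = 0.00231). Fgb (chromosome 3 from 83042305 to 83049790) measured 3.46, 2.32 and 2.73 CPM against 470.3, 266 and 132 CPM, with 6.67 ± 0.49 (SE, adjusted p = 0.000445), the smallest adjusted p among the 10 rises. Fgg (chromosome 3 from 83007896 to 83015049) rose from 10.8, 10.7 and 20.3 CPM to 2747, 2377 and 1345 CPM, with 7.27 ± 0.93 (SE, adjusted p = 0.002). The order of the HFD + hIRI libraries was the same in the 3 chains. The 10 largest rises and falls were taken only from genes whose groups did not overlap. Their lack of overlap is therefore not a result. Over all genes, 24.8% lay wholly higher in HFD + hIRI and 24.4% wholly lower.

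Next came secreted and structural products of injured epithelium. Lcn2, the iron-carrier binding protein lipocalin 2 used as an early marker of kidney injury (chromosome 2 from 32384637 to 32387739), measured 6.85, 7.30 and 8.13 CPM in ND + sham and 1389, 362 and 157 CPM in HFD + hIRI, a log2 fold change of 6.42 ± 0.95 (SE, adjusted p = 0.00322). Saa1, an acute phase apolipoprotein that may share reads with its copy Saa2, measured 1.99, 0.667 and 0.683 CPM and 173, 65.3 and 24.3 CPM, with 6.29 ± 0.87 (SE, adjusted p = 0.00253). Cxcl1, a chemokine that draws neutrophils, went from 1.27, 1.23 and 1.40 CPM to 189.8, 86.6 and 22.7 CPM, with 6.26 ± 1.26 (SE, adjusted p = 0.0065). In these genes replicate 1 was the highest HFD + hIRI library and replicate 3 the lowest. Lrg1, a leucine-rich acute phase glycoprotein, rose by 5.20 ± 0.62 on the log2 scale (SE, adjusted p = 0.002).

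Krt20 and Atf3 rested most on 1 library. Krt20, a keratin of the intermediate filaments (chromosome 11 from 99428403 to 99438153), was at 1421, 10.9 and 3.83 CPM in HFD + hIRI and at 0.514, 1.79 and 1.13 CPM in ND + sham. Its log2 fold change was 8.71 ± 2.15 (SE, adjusted p = 0.0129), the largest of the 10, and fell to 2.68 ± 0.93 (SE, adjusted p = 0.0644) without HFD + hIRI replicate 1. Atf3, a stress-induced transcription factor, measured 253, 40.7 and 4.61 CPM against 1.30, 0.948 and 2.36 CPM, with 6.01 ± 1.30 (SE, adjusted p = 0.0084), and with 3.87 (adjusted p = 0.0222) without that library. Of the 10 largest rises, 9 kept the call with each of the 12 libraries left out in turn, and 8 kept it in the 8 libraries of the higher run.

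The promoters of the fibrinogen genes, Lcn2 and Cxcl1 are shown because these genes rose together and their regulators are among the genes described below. RefSeq start sites on GRCm38.p6, the assembly of mm10, were found for 9 of the 10 largest rises and 6 of the 10 largest falls, and Sox9 is without an entry. The 250 bases before each start were searched on both strands for the STAT letters TTCCNGGAA, the C/EBP letters TTGCGCAA and the looser TTGCNNAA, and the NF-kB letters GGANTTTCC, in which N is any base. These letters were found in 0.913%, 0.164%, 9.56% and 1.07% of 32851 promoter windows of the same length. The strict C/EBP letters also fit the looser ones. Each sequence runs 5' to 3' toward the gene, and capitals mark a match.
Fga, chr3:83025903-83026152, plus strand: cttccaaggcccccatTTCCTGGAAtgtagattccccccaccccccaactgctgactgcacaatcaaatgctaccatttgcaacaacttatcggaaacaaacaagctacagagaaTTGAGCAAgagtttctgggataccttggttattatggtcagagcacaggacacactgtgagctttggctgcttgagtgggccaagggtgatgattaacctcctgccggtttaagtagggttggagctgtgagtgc
Fgb, chr3:83049864-83050113, minus strand: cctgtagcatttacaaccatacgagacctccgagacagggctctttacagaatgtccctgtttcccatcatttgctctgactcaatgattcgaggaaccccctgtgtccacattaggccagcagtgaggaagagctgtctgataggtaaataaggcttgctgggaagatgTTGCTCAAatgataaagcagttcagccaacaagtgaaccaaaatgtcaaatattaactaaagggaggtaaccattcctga
Fgg, chr3:83007474-83007723, plus strand: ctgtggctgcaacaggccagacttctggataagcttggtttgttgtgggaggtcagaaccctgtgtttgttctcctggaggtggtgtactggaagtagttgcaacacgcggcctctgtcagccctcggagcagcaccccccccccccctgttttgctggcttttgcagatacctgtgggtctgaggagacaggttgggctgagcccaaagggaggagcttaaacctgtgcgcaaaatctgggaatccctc
Lcn2, chr2:32387740-32387989, minus strand: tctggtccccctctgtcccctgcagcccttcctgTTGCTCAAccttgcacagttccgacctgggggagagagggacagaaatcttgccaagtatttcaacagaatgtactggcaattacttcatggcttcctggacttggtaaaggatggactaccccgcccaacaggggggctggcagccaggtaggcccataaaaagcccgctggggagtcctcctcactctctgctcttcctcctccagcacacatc
Cxcl1, chr5:90890995-90891244, plus strand: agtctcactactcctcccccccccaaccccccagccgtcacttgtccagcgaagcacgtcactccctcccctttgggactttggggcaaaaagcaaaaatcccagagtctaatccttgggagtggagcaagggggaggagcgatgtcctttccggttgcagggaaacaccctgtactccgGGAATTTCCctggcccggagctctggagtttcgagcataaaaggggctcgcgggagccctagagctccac
The Fga window held the STAT letters from 234 to 226 bases before the start and the looser C/EBP letters, on the reverse strand, from 135 to 128 bases before it. Fgb held the looser C/EBP letters from 80 to 73 bases and Lcn2 from 216 to 209 bases before the start. In Cxcl1 the NF-kB letters stood from 70 to 62 bases before the start, and the Fgg window held none of the letters searched. Over the 9 promoters of rising genes, 4 held the looser C/EBP letters, 1 the STAT letters, 1 the NF-kB letters and 0 the strict C/EBP letters, and 0 of the 6 promoters of falling genes held any of them. A match is a description of these letters and not evidence of binding.

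The largest falls were in steroid enzymes, transporters and a lectin of epithelial cells. Clec2h, a C-type lectin-like protein (chromosome 6 from 128662385 to 128677374), measured 37.4, 66.8 and 87.9 CPM in ND + sham and 1.65, 2.98 and 5.16 CPM in HFD + hIRI, a log2 fold change of -4.28 ± 0.49 (SE, adjusted p = 0.00176). Hsd3b4, a steroid dehydrogenase of the 3 beta family, measured 53.1, 25.8 and 37.3 CPM against 2.84, 2.60 and 5.35 CPM, with -3.43 ± 0.44 (SE, adjusted p = 0.002). Slc4a1, the anion exchanger of red blood cells and of acid-secreting intercalated cells, measured 33.9, 35.4 and 40.5 CPM against 4.18, 1.49 and 6.55 CPM, with -3.18 ± 0.78 (SE, adjusted p = 0.0124). Replicate 3 was the least changed of the 3 HFD + hIRI libraries in each of these genes.

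Other large falls came from ND + sham kidneys that differed widely among themselves. Akr1c18, which inactivates progesterone, was at 0.981, 1.03 and 1.06 CPM in HFD + hIRI and at 35.8, 51.3 and 2.53 CPM in ND + sham, a log2 fold change of -4.86 ± 1.23 (SE, adjusted p = 0.0144), with -4.84 and an adjusted p of 0.0559 without HFD + hIRI replicate 1. Slc22a7, an organic anion transporter, was at 15.5, 11.9 and 2.81 CPM against 117, 243 and 15.8 CPM, with -3.64 ± 0.98 (SE, adjusted p = 0.018), and with -2.72 and an adjusted p of 0.0595 without ND + sham replicate 2. For both genes the lowest ND + sham library was replicate 3, and the HFD + sham kidneys were low as well, at 1.41, 1.89 and 2.0 CPM for Akr1c18 and 8.73, 14.6 and 21.4 CPM for Slc22a7. Ptger1, the prostaglandin E receptor EP1, fell by 3.00 ± 0.51 on the log2 scale (SE, adjusted p = 0.0041), and Arhgef39, a guanine nucleotide exchange factor, by 3.06 ± 0.52 (SE, adjusted p = 0.00415). Airn, the RNA antisense to Igf2r, also fell, by 3.18 ± 0.44 (SE, adjusted p = 0.00241), but the strand setting of the counting is not given in the sources used here, so its reads and those of Igf2r cannot be told apart. Predicted genes without a known role took the other 2 places among the 10 largest falls.

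In absolute amount, large gains were in secreted proteins and a regulator of transcription. Spp1, the secreted phosphoprotein osteopontin of injured tubules, measured 927, 912 and 991 CPM in ND + sham and 16194, 8320.3 and 4157 CPM in HFD + hIRI, a log2 fold change of 3.34 ± 0.57 (SE, adjusted p = 0.00415). Gpx3, the glutathione peroxidase that the proximal tubule secretes into plasma, was the most abundant of these genes and went from 25713, 21954 and 25234 CPM to 33243, 32373 and 37296 CPM, with 0.50 ± 0.11 (SE, adjusted p = 0.00805). Tsc22d1, a leucine zipper regulator of transcription, rose from 512, 308 and 315 CPM to 4901, 3487 and 2297 CPM, with 3.23 ± 0.41 (SE, adjusted p = 0.002). Replicate 1 was the highest HFD + hIRI library for Spp1 and Tsc22d1, but replicate 3 was for Gpx3.

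The largest losses in amount were in proteins of the proximal tubule. Keg1, an acyltransferase-like kidney protein, fell from 2723, 2083 and 2011 CPM to 933, 721 and 721 CPM, a log2 fold change of -1.52 ± 0.27 (SE, adjusted p = 0.00446). Acsm2, a medium-chain acyl-CoA synthetase, fell from 6371, 6639 and 5248 CPM to 3998, 4398 and 3825 CPM, with -0.58 ± 0.14 (SE, adjusted p = 0.0119). Neither gene had an HFD + hIRI library within the ND + sham range, as in 2250 of the 2297 genes called lower and 24.4% of all genes. Kap, the fatty acid transporter Slc27a2 and Lrp2, the endocytic receptor megalin, passed narrowly, with -0.68, -0.52 and -0.53 on the log2 scale. Leaving out 1 library ended the call of Kap and of Lrp2 for 9 of the 12 libraries each, and that of Slc27a2 for 6. The largest adjusted p was 0.162 for Kap, without ND + sham replicate 1, and 0.0902 for Slc27a2, without the same library. For Lrp2 it was 0.128, without ND + sham replicate 1 or HFD + hIRI replicate 1, and the value without the latter was -0.35. Kap also overlapped between the groups, with ND + sham replicate 3 at 15286 CPM and HFD + hIRI replicate 2 at 16494 CPM.

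**Figure D2:**
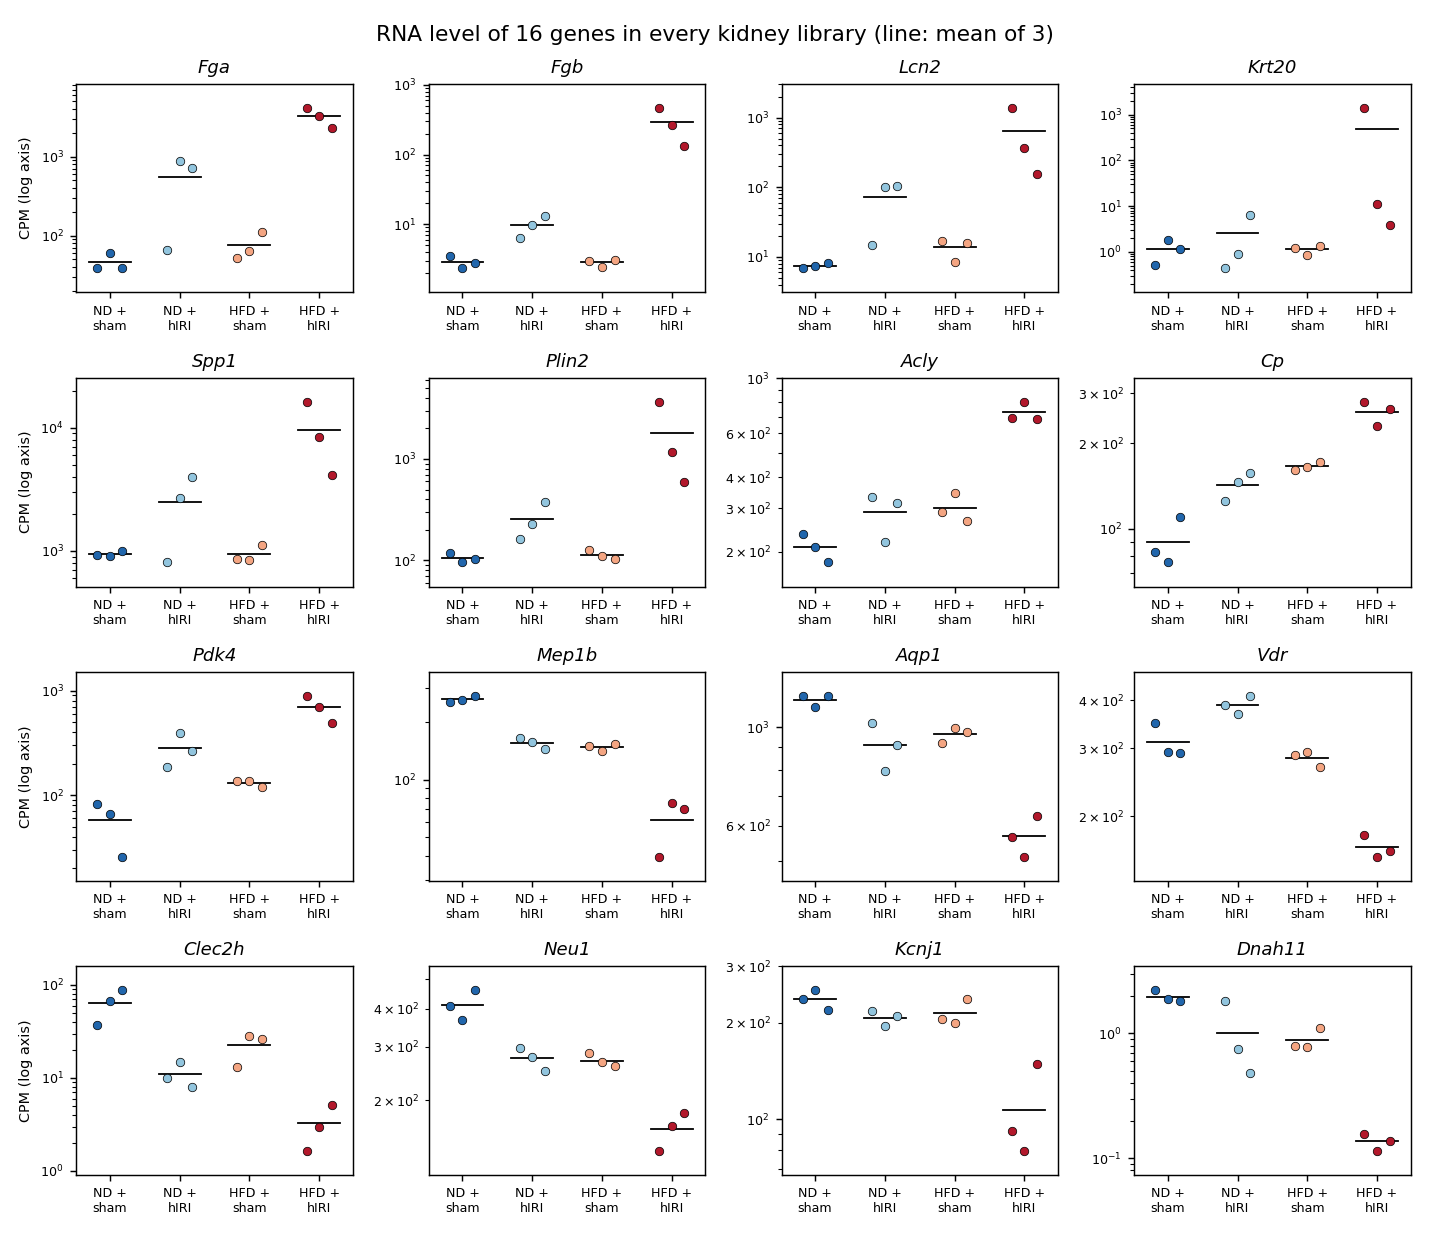
RNA level (CPM, log axis) of 16 genes in every library of the 4 groups, each point 1 library in the order of replicates 1, 2 and 3 and each line the mean of 3. The HFD + hIRI points lie above the ND + sham points for Fga through Pdk4, with replicate 1 far above the others for Krt20, and below them for Mep1b through Dnah11.

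Tubular injury genes and acute phase genes rose together. Of 32 tested genes of tubular injury and repair, 24 were higher and 0 lower, with a median log2 fold change of 2.43, and of 24 acute phase genes 15 were higher and 0 lower, with a median of 2.0, against 0.004 for all genes. Sox9, the transcription factor of regenerating tubule cells (chromosome 11 from 112782210 to 112787757), measured 0.617, 0.948 and 1.13 CPM in ND + sham and 152, 55.9 and 32.1 CPM in HFD + hIRI, a log2 fold change of 6.47 ± 0.89 (SE, adjusted p = 0.0025). Tnfrsf12a, the receptor of the cytokine TWEAK, went from 17.5, 15.9 and 12.4 CPM to 597, 206 and 110.1 CPM, with 4.32 ± 0.75 (SE, adjusted p = 0.00433). Havcr1, the kidney injury molecule of the proximal tubule, is named outside the rule for naming genes and was chosen after its values were seen. It measured 3.19, 3.62 and 3.45 CPM and 92.5, 18.6 and 6.41 CPM, with 3.51 ± 0.84 (SE, adjusted p = 0.0117), and with 1.86 (adjusted p = 0.0369) without HFD + hIRI replicate 1. All of these injury genes were graded, with replicate 1 highest and replicate 3 lowest.

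Cp behaved more evenly. Cp codes for ceruloplasmin, the copper protein that oxidizes iron, and measured 82.7, 76.0 and 109.8 CPM in ND + sham and 279.7, 229 and 263 CPM in HFD + hIRI, a log2 fold change of 1.53 ± 0.14 (SE, adjusted p = 0.000859). Its ND + hIRI level was 125, 146 and 157 CPM and its HFD + sham level 161, 165 and 171 CPM, between those of the groups compared. Of 28 genes of coagulation and fibrinolysis, 13 were higher and 6 lower, with a median of 0.65. Pros1, the anticoagulant protein S, rose by 1.16 ± 0.17 (SE, adjusted p = 0.00304). F8, clotting factor VIII, fell by 0.94 ± 0.17 (SE, adjusted p = 0.00467), and F13b, the carrier subunit of factor XIII, by 0.55 ± 0.11 (SE, adjusted p = 0.00616). Of 28 complement genes 5 were higher and 4 lower, close to the background. Without HFD + hIRI replicate 1, 17 injury genes, 10 acute phase genes and 9 coagulation genes were higher. Albumin, the main product of hepatocytes, was at 21.4, 16.7 and 19.6 CPM in ND + sham and 17.9, 15.5 and 18.4 CPM in HFD + hIRI, and of 13 tested hepatocyte genes 2 were higher and 2 lower, with summed levels of 248 to 403 CPM and 427 to 473 CPM. Their part in the rise of the acute phase genes was not tested.

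Cytokine signaling genes of the IL-6 family and of NF-kB were higher as groups. Of 27 genes of the IL-6 family and STAT3 pathway 20 were higher and 3 lower, with a median log2 fold change of 1.35, and of 35 genes of NF-kB 20 were higher and 0 lower, with a median of 1.13. Stat3, the transcription factor that IL-6 activates (chromosome 11 from 100886810 to 100939511), measured 92.9, 100.3 and 92.4 CPM in ND + sham and 652, 537 and 398 CPM in HFD + hIRI, a log2 fold change of 2.47 ± 0.31 (SE, adjusted p = 0.002). Socs3, its feedback inhibitor, named after its values were seen, measured 5.69, 6.63 and 4.99 CPM and 257, 102 and 40.8 CPM, with 4.53 ± 0.74 (SE, adjusted p = 0.00393). Cebpb, the C/EBP beta of the acute phase response, went from 19.8, 20.1 and 21.2 CPM to 201, 105 and 91.9 CPM, with 2.7 ± 0.28 (SE, adjusted p = 0.00138). In all 3 genes the ND + sham kidneys were close together and the HFD + hIRI kidneys were well apart from them. Lif, a cytokine of this family, was at 21.5, 16.7 and 1.29 CPM in HFD + hIRI and below 1 CPM in each ND + sham library, with 5.06 ± 1.05 (SE, adjusted p = 0.00747). Tyk2, a kinase of the same pathway, fell by 0.95 ± 0.17 (SE, adjusted p = 0.00429). The 3 genes that fell in this list were 1 without ND + sham replicate 2 and 1 without ND + sham replicate 3.

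Among the 20 higher genes of the NF-kB list were receptors, adaptors and nuclear partners. Tnfrsf1a, the main receptor of TNF, measured 49.7, 52.8 and 46.1 CPM in ND + sham and 271, 165 and 134 CPM in HFD + hIRI, a log2 fold change of 1.94 ± 0.27 (SE, adjusted p = 0.00266). Bcl3 and Nfkbiz, nuclear partners of NF-kB, rose by 3.06 ± 0.48 and 2.89 ± 0.51 (SE), and the Toll-like receptor adaptor Myd88 by 1.13 ± 0.22 (SE). Icam1, which holds leukocytes to endothelium, rose from 26.0, 22.8 and 24.7 CPM to 82.3, 60.0 and 53.4 CPM, with 1.41 ± 0.23 (SE, adjusted p = 0.00383). Of 25 chemokines and adhesion molecules 9 were higher and 1 lower. Among them Cxcl14 rose by 1.74 ± 0.33 (SE), whereas Cxcl12, which retains lymphoid and progenitor cells, fell by 0.87 ± 0.25 (SE, adjusted p = 0.0222). The call of Cxcl12 was lost without ND + sham replicate 2 (adjusted p = 0.0512), ND + sham replicate 3 (adjusted p = 0.067) or, with an adjusted p of 0.0753, HFD + hIRI replicate 1, and 5 chemokines and adhesion molecules were higher without ND + sham replicate 1, ND + sham replicate 2 or HFD + hIRI replicate 1.

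Immediate early genes formed the most uniform list. Of 32 genes of the AP-1 family and related early response genes, 30 were higher and 0 lower, all 32 were positive on the log2 scale, and the median was 2.72. Junb, a subunit of AP-1, measured 17.4, 17.5 and 17.6 CPM in ND + sham and 263, 167 and 83.1 CPM in HFD + hIRI, a log2 fold change of 3.29 ± 0.51 (SE, adjusted p = 0.00347). Jun rose by 2.74 ± 0.48, Fosl2 by 2.44 ± 0.44 and Maff, a small Maf factor, by 3.48 ± 0.55 (SE). Of 32 genes of growth factor signaling and its feedback, 17 were higher and 2 lower, with a median of 0.71. Errfi1, which restrains the EGF receptor, went from 653, 785 and 624 CPM to 2528, 2007 and 1571 CPM, with 1.57 ± 0.22 (SE, adjusted p = 0.00256). The brakes of MAP kinase signaling Spry4 and Dusp4 rose by 1.75 ± 0.30 and 1.73 ± 0.32 (SE). The growth factor Igf1 fell from 6.88, 7.90 and 16.4 CPM to 2.01, 1.91 and 2.03 CPM, with -2.39 ± 0.37 (SE, adjusted p = 0.00332). Of the 20 signaling genes named in these paragraphs, 19 kept the call with each library left out, Cxcl12 being the exception, and 13 kept it in the 8 libraries of the higher run. The 2 growth factor genes that fell were 1 without ND + sham replicate 1, ND + hIRI replicate 3, any HFD + sham library or HFD + hIRI replicate 1 or 2, and 4 without ND + hIRI replicate 1.

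Genes that set the threshold for cell death were more often higher than lower, against 19.1% higher and 16.3% lower over all genes. Of 22 genes of extrinsic apoptosis, the pathway that starts at death receptors, 12 were higher and 1 lower, with a median log2 fold change of 0.71. Of 31 genes of the BCL2 family and p53 targets 13 were higher and 1 lower, with a median of 0.51. Bcl2l1, which codes for the survival protein BCL-XL, measured 138, 111 and 95.2 CPM in ND + sham and 560.2, 383 and 289 CPM in HFD + hIRI, a log2 fold change of 1.84 ± 0.25 (SE, adjusted p = 0.00231). Pea15a, an adaptor that blocks death receptor signals, rose by 0.80 ± 0.13 (SE), and Ltbr, the lymphotoxin beta receptor, by 0.74 ± 0.13 (SE). Tnfsf10, the death ligand TRAIL, fell from 101, 94.7 and 108 CPM to 31.0, 37.6 and 55.6 CPM, with -1.29 ± 0.27 (SE, adjusted p = 0.00797). Without HFD + hIRI replicate 1, 8 genes of extrinsic apoptosis were higher and 3 lower, with a median of 0.42, and without replicate 3 the counts were 13 and 2. The 1 lower gene of the BCL2 and p53 list was 2 without either of these libraries.

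Cell cycle inhibitors were among the 13 higher genes of the BCL2 and p53 list. Cdkn1a, the cell cycle inhibitor p21, measured 12.0, 12.9 and 12.4 CPM in ND + sham and 630.2, 126 and 113 CPM in HFD + hIRI, a log2 fold change of 4.54 ± 0.84 (SE, adjusted p = 0.00526). Gadd45a, a DNA damage response gene, went from 18.8, 20.3 and 19.3 CPM to 138, 134 and 72.9 CPM, with 2.56 ± 0.36 (SE, adjusted p = 0.00257), and the antiproliferative Btg2 rose by 4.20 ± 0.81 (SE). Of 15 genes of pyroptosis and necroptosis, 5 were higher and 0 lower, and 1 was higher without HFD + hIRI replicate 1. Ninj1, which ruptures the membrane of dying cells, rose by 0.69 ± 0.17 (SE, adjusted p = 0.0121), and by 0.45 (adjusted p = 0.0268) without that library. The pyroptosis and necroptosis count was 2 without ND + sham replicate 1, 3 without ND + sham replicate 2 or 3 and 8 without HFD + hIRI replicate 3, and 1 gene was lower without ND + sham replicate 3 or HFD + hIRI replicate 1. Of 33 cell cycle and mitosis genes 4 were higher and 2 lower, below the 19.1% and 16.3% of all genes. E2f1, a driver of entry into S phase, fell by 1.05 ± 0.22 (SE). The 4 were 2 without ND + sham replicate 1 or HFD + hIRI replicate 1, and the 2 were 1 without ND + sham replicate 3 or HFD + hIRI replicate 1 or 2.

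Ferroptosis and glutathione genes were mostly higher, with 17 of 30 higher, 4 lower and a median log2 fold change of 0.78. Acsl4, which loads polyunsaturated fatty acids into membrane lipids, measured 76.4, 75.3 and 82.4 CPM in ND + sham and 569, 342 and 233 CPM in HFD + hIRI, a log2 fold change of 2.29 ± 0.28 (SE, adjusted p = 0.002). Nfe2l2, the oxidative stress regulator NRF2, rose by 1.25 ± 0.20 (SE), and glutathione reductase Gsr by 1.01 ± 0.14 (SE, adjusted p = 0.00231). Gpx4, the peroxidase that removes lipid peroxides, did not pass, at 627, 584 and 561 CPM against 721, 596 and 663 CPM (log2 fold change 0.16 ± 0.09, SE, adjusted p = 0.2). The 4 lower genes included Gss, glutathione synthetase, at -0.47 ± 0.11 and Cbs, cystathionine beta synthase, at -0.60 ± 0.15 (SE). These 4 were 2 without ND + sham replicate 1 and 2 without HFD + hIRI replicate 1. The 13 called genes named in these paragraphs on cell death kept the call with each library left out, and 4 kept it in the 8 libraries of the higher run.

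Antioxidant, metal and protein stress genes rose unevenly. Of 31 NRF2 targets 14 were higher and 1 lower, with a median log2 fold change of 0.61. Txnrd1, thioredoxin reductase, measured 189, 187 and 172 CPM in ND + sham and 1152, 686 and 342 CPM in HFD + hIRI, a log2 fold change of 1.99 ± 0.34 (SE, adjusted p = 0.0042). The glutathione transferase Gsta2, which may share reads with close copies, rose by 1.12 ± 0.21 (SE), and the export pump Abcc3 by 1.33 ± 0.20 (SE). The 1 lower NRF2 target was 0 without ND + sham replicate 3 or HFD + hIRI replicate 2 and 2 without HFD + hIRI replicate 3. The metallothioneins, small proteins that bind zinc and copper, were among the steepest. Mt1 went from 63.7, 62.9 and 61.8 CPM to 2275, 716 and 468 CPM, with 4.20 ± 0.67 (SE, adjusted p = 0.00376), and Mt2 from 40.2, 54.4 and 42.4 CPM to 2075, 693 and 433 CPM, with 4.55 ± 0.83 (SE, adjusted p = 0.00494). The zinc importer Slc39a14 rose by 2.28 ± 0.37 (SE). Of 16 genes of metallothioneins and zinc transport 8 were higher and 1 lower, and the 8 fell to 4 or 5 without any of 8 single libraries, 4 being the count without HFD + hIRI replicate 1 or any ND + sham library. HFD + sham replicates 1, 2 or 3 and HFD + hIRI replicate 2 left 5. The 1 lower gene was 0 without ND + sham replicate 1 or HFD + hIRI replicate 1.

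Chaperones did not rise as a group. Of 23 heat shock and chaperone genes 4 were higher and 4 lower, with a median log2 fold change of -0.05. Both shares were near the 19.1% and 16.3% of all genes. With library totals 8 were lower, and 7 were higher without HFD + hIRI replicate 3. Hsph1, a large cytosolic chaperone, fell from 177, 156 and 148 CPM to 96.0, 96.3 and 75.1 CPM, with -0.85 ± 0.11 (SE, adjusted p = 0.00231), and its relative Hspa4l fell by 0.77 ± 0.15 (SE). Hsp90b1, the chaperone GRP94 of the endoplasmic reticulum, fell by 0.57 ± 0.12 (SE), while the co-chaperone Dnajb4 rose by 0.80 ± 0.18 (SE). Of 36 genes of the unfolded protein and integrated stress responses 14 were higher and 4 lower, with a median of 0.58. Psat1, an enzyme of serine synthesis, went from 76.5, 71.2 and 33.3 CPM to 328, 296 and 294 CPM, with 2.34 ± 0.36 (SE, adjusted p = 0.00335). The amino acid transporter subunit Slc3a2 rose by 0.98 ± 0.18 (SE), and the stress hormone Gdf15 by 4.53 ± 0.93 (SE, adjusted p = 0.00712) or 2.97 (adjusted p = 0.0167) without HFD + hIRI replicate 1. The 14 higher genes were 8 without HFD + hIRI replicate 1 or ND + sham replicate 3, and 9 without ND + sham replicate 1 or 2.

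Genes that glucocorticoids induce were higher to a like extent in each HFD + hIRI kidney. Of 26 genes in this list 17 were higher and 3 lower, with a median log2 fold change of 1.31. The mean difference from ND + sham was 1.63, 1.47 and 1.39 in replicates 1, 2 and 3. The 3 lower genes were the glucocorticoid receptor Nr3c1 and the enzymes Hsd11b1 and Hsd11b2, which act on the hormone. Pdk4, which holds back pyruvate oxidation (chromosome 6 from 5483351 to 5496278), measured 81.9, 65.9 and 25.9 CPM in ND + sham and 888, 698 and 489 CPM in HFD + hIRI, a log2 fold change of 3.58 ± 0.42 (SE, adjusted p = 0.002). The 3 lower genes of the list were 1 without ND + sham replicate 2 or HFD + hIRI replicate 1, and 0 without HFD + hIRI replicate 2. Hsd11b2, which inactivates glucocorticoids in cells that answer to aldosterone, fell from 79.5, 86.1 and 91.0 CPM to 38.1, 24.4 and 34.9 CPM, with -1.40 ± 0.37 (SE, adjusted p = 0.0161), and with -1.23 and an adjusted p of 0.0512 without HFD + hIRI replicate 2.

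Adrenal markers were higher in the same kidneys. Akr1b7, an aldo-keto reductase abundant in the adrenal cortex, measured 2.12, 2.04 and 2.02 CPM in ND + sham and 64.9, 25.8 and 32.1 CPM in HFD + hIRI, a log2 fold change of 4.31 ± 0.58 (SE, adjusted p = 0.00231). Mc2r, the receptor for ACTH, went from 0.480, 0.316 and 0.478 CPM to 2.58, 1.53 and 2.54 CPM, with 2.36 ± 0.40 (SE, adjusted p = 0.0041). Of 13 adrenal markers 4 were in the table and 3 were higher, at a summed level of 3.86 to 4.42 CPM in ND + sham and 29.5 to 70.3 CPM in HFD + hIRI, nearly all of it Akr1b7. The steroid enzyme Cyp17a1 was below 1 CPM in all 6 libraries, which is no measure of how much adrenal tissue was present. The part of adrenal markers in the rise of glucocorticoid-induced genes was not tested.

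The circadian clock list was split, with 8 of 20 genes higher and 5 lower. Bhlhe40, a repressor in the clock that also answers to hypoxia, measured 81.4, 115 and 115 CPM in ND + sham and 417.6, 320.3 and 219 CPM in HFD + hIRI, a log2 fold change of 1.62 ± 0.26 (SE, adjusted p = 0.00393). The repressor Nfil3 rose by 2.54 ± 0.55 and Arntl, the clock activator BMAL1, by 1.91 ± 0.45 (SE). Dbp, an output activator that opposes Nfil3, fell from 83.6, 75.8 and 87.2 CPM to 33.2, 16.2 and 11 CPM, with -2.03 ± 0.51 (SE, adjusted p = 0.0141), and Per3 fell by 1.45 ± 0.35 (SE). No library of one group lay within the range of the other for these 5 genes. Most called genes were of this kind, 2590 of the 2698 higher and 2250 of the 2297 lower ones, against 24.8% and 24.4% of all genes. The sources used here do not give the hour at which each mouse was collected. The 8 higher genes were 4 without ND + sham replicate 1 or 3 and 5 without HFD + hIRI replicate 2, and the 5 lower ones were 2 without ND + sham replicate 1 and 3 without ND + sham replicate 2 or 3.

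Lipid storage and fuel genes shifted gene by gene. Plin2, the coat protein of lipid droplets, measured 118, 95.4 and 103 CPM in ND + sham and 3660.1, 1185 and 589.9 CPM in HFD + hIRI, a log2 fold change of 4.10 ± 0.59 (SE, adjusted p = 0.00283). Apob, which the kidney uses to export lipoprotein, went from 614, 547 and 646 CPM to 1293, 1429 and 1295 CPM, with 1.15 ± 0.17 (SE, adjusted p = 0.00322), and Plin5 rose by 1.33 ± 0.21 (SE). Among the 35 genes of lipid droplets and lipid uptake 14 were higher and 1 lower (2 without ND + sham replicate 3 or ND + hIRI replicate 2), with a median log2 fold change of 0.28. Acly, which makes cytosolic acetyl-CoA for lipid synthesis (chromosome 11 from 100476352 to 100528000), measured 236, 209 and 181 CPM and 694, 804 and 688 CPM, with 1.80 ± 0.17 (SE, adjusted p = 0.000859). Its HFD + hIRI libraries were within a narrow range, unlike those of Plin2. The sugar-sensing factor Mlxipl rose by 0.89 ± 0.17 (SE), whereas Acss2, which makes acetyl-CoA from acetate, fell by 0.81 ± 0.20 (SE) and the sphingolipid desaturase Degs2 by 1.46 ± 0.24 (SE). Of 23 genes of fatty acid synthesis and desaturation 6 were higher and 5 lower, against 19.1% and 16.3% of all genes. The 5 were 2 without ND + sham replicate 2.

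Fatty acid oxidation genes leaned upward. Of 41 genes 13 were higher and 4 lower, with a median log2 fold change of 0.42, and 32 had a positive value. Cpt1a, the gate for fatty acids into mitochondria, measured 678, 722 and 618 CPM in ND + sham and 863, 1149 and 979.8 CPM in HFD + hIRI, a log2 fold change of 0.57 ± 0.13 (SE, adjusted p = 0.00967). Acox2, which oxidizes branched chains, fell by 1.25 ± 0.26 (SE), and Bdh1, an enzyme of ketone bodies, by 1.06 ± 0.22 (SE). The 13 higher genes were 4 without ND + sham replicate 2 or 3 and 8 without HFD + hIRI replicate 1 or 2, and with library totals 4 genes of this list were higher and 8 lower. Cholesterol synthesis leaned the other way, with 4 of 26 genes higher and 7 lower, against 19.1% and 16.3% of all genes. The median was -0.21. Cyp51, lanosterol demethylase, fell from 492, 328 and 155 CPM to 68.5, 121 and 92.4 CPM, with -1.79 ± 0.40 (SE, adjusted p = 0.00936), Mvd by 1.62 ± 0.31 (SE) and Dhcr7 by 1.27 ± 0.25 (SE). The 7 lower genes were 4 without ND + sham replicate 2 or HFD + hIRI replicate 2, and the 4 higher ones 1 or 2 without any ND + sham library or HFD + hIRI replicate 1.

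Of 26 genes of gluconeogenesis and ammoniagenesis 10 were higher and 2 lower, with a median log2 fold change of 0.39. Glud1, which frees ammonia from glutamate, measured 834, 618 and 597 CPM in ND + sham and 2015, 2065 and 1609.6 CPM in HFD + hIRI, a log2 fold change of 1.47 ± 0.17 (SE, adjusted p = 0.00176). Slc38a3, the glutamine importer of the proximal tubule that acidosis induces, went from 76.5, 69.3 and 46.5 CPM to 463, 431 and 214 CPM, with 2.53 ± 0.32 (SE, adjusted p = 0.002). The 2 lower genes, the ammonia transporter Rhbg and the amino acid transporter Slc7a7, fell by 0.84 ± 0.22 and 0.96 ± 0.15 (SE). They were 4 without ND + hIRI replicate 1 or HFD + hIRI replicate 3 and 1 without HFD + hIRI replicate 2. Of 32 genes of glycolysis and hypoxia 14 were higher and 1 lower, with Gapdh at 0.59 ± 0.11 (SE) and Pfkm, the muscle type of phosphofructokinase, the exception at -1.07 ± 0.23 (SE). Those 14 were 7 without ND + sham replicate 1 and 8 without ND + sham replicate 3 or HFD + hIRI replicate 1, and the 1 lower gene was 2 without ND + sham replicate 1 or ND + hIRI replicate 3 and 3 without HFD + hIRI replicate 3.

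Mitochondrial genes rose slightly. Fh1, fumarate hydratase, was the steepest of the citric acid cycle, at 229.7, 215 and 207 CPM in ND + sham and 763, 715 and 503 CPM in HFD + hIRI, a log2 fold change of 1.60 ± 0.17 (SE, adjusted p = 0.00138). Malate dehydrogenase Mdh2 rose by 0.44 ± 0.09, cytochrome c (Cycs) by 0.69 ± 0.14 and the complex I subunit Ndufa2 by 0.45 ± 0.09 (SE). Of 25 citric acid cycle genes 7 were higher and 0 lower, and of 40 subunits of oxidative phosphorylation 19 were higher and 0 lower, with medians of 0.20 and 0.24. With library totals these counts were 2 and 5, and their medians 0.03 and 0.07. With only the 6 libraries compared, 1 citric acid cycle gene and 2 subunits were higher, and in the 8 libraries of the higher run 1 and 0. The 19 were 6 to 8 without ND + sham replicate 2, ND + sham replicate 3 or HFD + hIRI replicate 1, and 11 or 12 without HFD + sham replicate 3 or 1, and the 7 were 3 or 4 without ND + sham replicate 3, ND + sham replicate 2 or HFD + sham replicate 3.

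Amino acid catabolism genes were more often lower than higher, with 2 of 42 genes higher, 15 lower and a median log2 fold change of -0.25. Aspa, which splits N-acetylaspartate, fell from 200.3, 173 and 169 CPM to 43.2, 73.8 and 84.9 CPM, with -1.42 ± 0.21 (SE, adjusted p = 0.00322), and Bcat2, which starts the breakdown of branched chains, by 0.97 ± 0.12 (SE, adjusted p = 0.002). The 2 higher genes were Arg2, a mitochondrial arginase, at 10.5, 11 and 7.96 CPM in ND + sham and 127, 72.5 and 46.8 CPM in HFD + hIRI, with 3.06 ± 0.34 (SE, adjusted p = 0.00176), and Gldc, of the glycine cleavage system, with 1.68 ± 0.29 (SE). They were 4 without ND + hIRI replicate 1. The 15 were 9 without ND + sham replicate 1 or HFD + hIRI replicate 1. Of the 27 genes named in the paragraphs on metabolism 26 kept the call with each library left out, Rhbg being lost without HFD + hIRI replicate 2 (adjusted p = 0.0543), and 9 kept it in the 8 libraries of the higher run.

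Transport and brush border genes of the proximal tubule were more often lower than higher. Of 48 genes of proximal tubule identity and transport 17 were lower and 4 higher, with a median log2 fold change of -0.35, and of 24 brush border enzymes 11 were lower and 0 higher, with a median of -0.45. Mep1b, the beta subunit of the brush border protease meprin (chromosome 18 from 21072344 to 21100199), measured 255, 259.8 and 274 CPM in ND + sham and 39.6, 75.2 and 70.5 CPM in HFD + hIRI, a log2 fold change of -2.09 ± 0.19 (SE, adjusted p = 0.000859). Its partner Mep1a fell by 0.63 ± 0.12 (SE). Aqp1, the water channel of proximal tubule and thin limb (chromosome 6 from 55336299 to 55348555), went from 1176, 1108 and 1175 CPM to 566, 511 and 632 CPM, with -1.02 ± 0.11 (SE, adjusted p = 0.00166). Slc6a19, which takes up neutral amino acids, fell by 1.08 ± 0.16 (SE) and Slc22a28, an organic anion transporter of the mouse kidney, by 1.46 ± 0.21 (SE). Slc13a1, the sulfate transporter of the brush border, rose instead, from 754, 538 and 687 CPM to 1319, 1906 and 1432 CPM, with 1.23 ± 0.21 (SE, adjusted p = 0.0042). The 17 falls were 10 without ND + sham replicate 2, and the 4 rises 1 and 2 without ND + sham replicates 2 and 3. Of the brush border enzymes 1 was higher without ND + hIRI replicate 1 or 2.

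Segments beyond the proximal tubule changed too. Of 21 genes of the thick ascending limb 7 were lower and 1 higher, with a median log2 fold change of -0.30, and of 34 genes of distal tubule and collecting duct 13 were lower and 5 higher, with a median of -0.35. Kcnj1, the potassium channel ROMK, measured 237, 253 and 219.5 CPM in ND + sham and 91.9, 79.8 and 148 CPM in HFD + hIRI, a log2 fold change of -1.15 ± 0.19 (SE, adjusted p = 0.0041). Bsnd, the chloride channel subunit barttin, fell from 46.0, 54.3 and 48.1 CPM to 6.56, 8.68 and 21.9 CPM, with -2.0 ± 0.43 (SE, adjusted p = 0.00807), and the phosphatase inhibitor Ppp1r1a by 1.41 ± 0.20 (SE). Prss8, the protease prostasin that activates the epithelial sodium channel, fell by 1.09 ± 0.17 (SE) and Elf5, a transcription factor of principal cells, by 1.93 ± 0.31 (SE). Not every distal gene fell. Slc12a3, the thiazide-sensitive sodium chloride transporter, went from 472, 580.0 and 515 CPM to 755, 776 and 673 CPM, with 0.49 ± 0.10 (SE, adjusted p = 0.00784). The intercalated cell genes Foxi1 and Slc4a9 rose by 0.55 ± 0.14 and 0.74 ± 0.14 (SE). Intercalated cell genes did not move together, since Slc4a1, in the same list, was among the largest falls given above. The 13 distal falls were 8 without HFD + hIRI replicate 2, and the 5 rises 3 without any HFD + hIRI or ND + sham library but HFD + hIRI replicate 3, and without HFD + sham replicate 3. The higher gene of the ascending limb was 0 without ND + sham replicates 1 or 3 or HFD + hIRI replicate 1, and 2 genes were higher without ND + sham replicate 2, ND + hIRI replicate 1 or HFD + hIRI replicate 3.

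Single genes of mineral and pressure hormones moved in both directions, while the medians of their lists stayed near that of all genes. Vdr, the vitamin D receptor (chromosome 15 from 97854427 to 97908296), measured 349.9, 295 and 292 CPM in ND + sham and 179, 157 and 162 CPM in HFD + hIRI, a log2 fold change of -0.91 ± 0.10 (SE, adjusted p = 0.00146). Kl, the FGF23 coreceptor klotho, fell from 713, 907 and 652 CPM to 253, 406.5 and 444 CPM, with -1.04 ± 0.21 (SE, adjusted p = 0.00609), and the calcium-sensing receptor Casr by 1.23 ± 0.27 (SE). The phosphate transporter Slc20a2 rose by 0.85 ± 0.15 (SE). Among 21 genes of vitamin D, calcium and phosphate 6 were higher and 5 lower, against 19.1% and 16.3% of all genes, with a median of -0.05. The 5 were 3 without HFD + hIRI replicate 1. Ace, which makes angiotensin II, fell from 285, 354 and 258 CPM to 109, 143 and 88.2 CPM, with -1.40 ± 0.21 (SE, adjusted p = 0.00322), and Agt, its precursor, rose by 1.05 ± 0.22 (SE). Klk1, the kallikrein that frees kinins, rose from 1705, 1485 and 1254 CPM to 2593, 2093 and 2286 CPM, with 0.65 ± 0.13 (SE, adjusted p = 0.00571). Mas1, the receptor of a vasodilator angiotensin peptide, was scarce at 1.37, 2.42 and 2.22 CPM in ND + sham and 0.103, 0.0383 and 0.138 CPM in HFD + hIRI, with -4.40 ± 0.56 (SE, adjusted p = 0.002). Its HFD + sham level was as low, at 0.0328, 0.171 and 0.0852 CPM, and the ND + hIRI level lay between, at 0.476, 1.12 and 0.864 CPM. Of 22 genes of the renin-angiotensin system and vascular tone 8 were higher and 3 lower, the latter near the share of all genes, with a median of 0.04. Podocyte and glomerular genes gave 2 higher and 3 lower of 22, both below the shares of all genes, and neither higher gene held up with upper quartile scaling. The 2 were 0 without ND + hIRI replicate 3 or HFD + sham replicate 1 and 1 without 7 other libraries, and the 3 were 5 without ND + hIRI replicate 1. Col4a5, a collagen of the glomerular basement membrane, fell by 0.76 ± 0.12 (SE, adjusted p = 0.00362). All 23 genes named in the paragraphs on the nephron kept the call with each library left out, and 10 of them kept it in the 8 libraries of the higher run.

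Markers of cells other than tubule cells were mixed. Of 29 endothelial genes 10 were higher and 2 lower, with a median log2 fold change of 0.25. Cldn5, the claudin of endothelial junctions, measured 6.75, 6.56 and 8.71 CPM in ND + sham and 21.4, 18.1 and 16.8 CPM in HFD + hIRI, a log2 fold change of 1.35 ± 0.19 (SE, adjusted p = 0.00264). Flt1, a receptor of VEGF, rose by 0.87 ± 0.19 (SE), whereas Aplnr, the apelin receptor, fell from 2.12, 2.91 and 1.88 CPM to 0.258, 0.344 and 0.277 CPM, with -2.94 ± 0.41 (SE, adjusted p = 0.00244). The 10 were 6 without ND + sham replicate 1 or HFD + hIRI replicate 1, and the 2 falls were 4 without HFD + hIRI replicate 1 and 1 without ND + sham replicate 2. Of 28 genes of fibroblasts and collagens 6 were higher, near the 19.1% of all genes, and 1 lower, below the 16.3%. Their median was -0.02. Pdgfrb, a receptor of pericytes, rose from 36.4, 51.1 and 26.1 CPM to 76.1, 66.1 and 77.7 CPM, with 0.95 ± 0.23 (SE, adjusted p = 0.0118). The 6 were 3 without ND + sham replicate 3 and 4 without ND + sham replicate 1 or HFD + hIRI replicate 1. The 1 fall was 0 without ND + sham replicate 2 or 3, HFD + sham replicate 2 or 3, or HFD + hIRI replicate 1 or 2, 2 without ND + hIRI replicate 3 or HFD + hIRI replicate 3, and 3 without ND + sham replicate 1.

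More genes of macrophages and monocytes were higher than lower, without a like rise of the macrophage marker Adgre1. Of 29 genes in this list 11 were higher and 1, Cx3cr1, was lower, with a median of 1.10. Cd14, the coreceptor for endotoxin, measured 5.96, 7.90 and 7.72 CPM in ND + sham and 218, 48.4 and 23.6 CPM in HFD + hIRI, a log2 fold change of 3.75 ± 0.76 (SE, adjusted p = 0.00672), and 2.32 (adjusted p = 0.0122) without HFD + hIRI replicate 1. Lgals3, galectin 3, rose by 2.43 ± 0.47 (SE, adjusted p = 0.00593), and Mrc1, the mannose receptor, from 5.89, 12.3 and 10.8 CPM to 27.0, 31.5 and 28.0 CPM, with 1.58 ± 0.33 (SE, adjusted p = 0.00736). Adgre1, which codes for F4/80, was not called, at 4.35, 5.16 and 13.2 CPM in ND + sham and 3.10, 5.85 and 4.61 CPM in HFD + hIRI (log2 fold change -0.74 ± 0.47, SE, adjusted p = 0.229). Mrc1 was even among the HFD + hIRI kidneys, while Cd14 and Lgals3 were highest in replicate 1. The 11 higher genes were 5 without ND + sham replicate 3 or HFD + hIRI replicate 1, 6 without ND + sham replicate 1 or 2 and 7 without HFD + hIRI replicate 2 or with library totals. The 1 lower gene was not called without ND + sham replicate 2 or 3 or HFD + hIRI replicate 1 or 3.

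Neutrophil genes had positive log2 fold changes in every tested member but rested on 1 kidney. Of 16 tested genes 6 were higher and 0 lower, with a median of 2.46, and the mean log2 difference from ND + sham was 3.50, 1.08 and 0.86 in HFD + hIRI replicates 1, 2 and 3. Il1r2, the decoy receptor of interleukin 1, measured 0.308, 0.597 and 0.376 CPM in ND + sham and 20.8, 2.18 and 1.57 CPM in HFD + hIRI, a log2 fold change of 4.24 ± 1.03 (SE, adjusted p = 0.0122), and 2.12 (adjusted p = 0.0355) without HFD + hIRI replicate 1. Clec4e, a pattern receptor of myeloid cells, was at 7.80, 0.956 and 0.876 CPM in HFD + hIRI, with 3.50 ± 0.93 (SE, adjusted p = 0.0171). Its call was lost without ND + sham replicate 2 (adjusted p = 0.0552), ND + sham replicate 3 (adjusted p = 0.0568) and, at 1.71 with an adjusted p of 0.0785, without HFD + hIRI replicate 1. Trem1, an amplifier of inflammation in the same cells, rose by 3.18 ± 0.80 (SE, adjusted p = 0.0141), and lost the call without ND + sham replicate 3 (adjusted p = 0.0516) and, at 1.81 with an adjusted p of 0.0513, without HFD + hIRI replicate 1. The defining neutrophil gene S100a8, chosen after its values were seen, was at 3.19, 5.16 and 2.73 CPM in ND + sham and 46.4, 7.77 and 5.99 CPM in HFD + hIRI and was not called (adjusted p = 0.0687). The neutrophil count of 6 was 1 without HFD + hIRI replicate 1 or ND + sham replicate 3, 2 without ND + sham replicate 2, 3 without ND + sham replicate 1 and 10 without HFD + hIRI replicate 3.

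Lymphocyte, antigen presentation and interferon genes showed little change that passed. Of 29 listed lymphocyte genes 11 were in the table, 0 were higher and 1 was lower. That gene, Cd8a, a coreceptor of cytotoxic T cells, was at 0.788, 1.33 and 0.751 CPM in ND + sham and 0.310, 0.153 and 0.323 CPM in HFD + hIRI, with -1.88 ± 0.48 (SE, adjusted p = 0.0144). Of 20 antigen presentation genes 0 were called in either direction, and 1 was higher or lower without any 1 of 5 libraries. Of 45 interferon-stimulated genes 3 were higher and 1 lower, below the 19.1% and 16.3% of all genes, with a median of 0.53. The mean log2 difference of the interferon genes was 0.81, 0.04 and -0.21 in HFD + hIRI replicates 1, 2 and 3. The gene that fell, Gbp10, a guanylate-binding protein that may share reads with its relatives, went from 1.68, 2.11 and 1.06 CPM to 0.103, 0.230 and 0.138 CPM, with -3.28 ± 0.63 (SE, adjusted p = 0.00571). The 3 higher interferon genes were 0 or 1 without ND + sham replicates 2 or 1 or HFD + hIRI replicate 1, and 6 and 8 without ND + hIRI replicates 1 and 2. The 1 lower gene was joined by others to 2 without ND + hIRI replicate 1 or 3 and 4 without ND + hIRI replicate 2.

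The complement genes called went both ways. C7, which builds the membrane attack complex, measured 12.2, 17.1 and 13.7 CPM in ND + sham and 38.9, 30.2 and 32.9 CPM in HFD + hIRI, a log2 fold change of 1.25 ± 0.29 (SE, adjusted p = 0.0111), and its partner C6 rose by 1.57 ± 0.33 (SE). Cd59a, which blocks that complex, fell by 0.48 ± 0.09 (SE, adjusted p = 0.00532). The 5 complement genes that rose were 2 without ND + sham replicate 1 or HFD + hIRI replicate 1 and 3 without HFD + hIRI replicate 2. Ccl11, the eosinophil chemokine eotaxin, was not called, at 0.582, 0.667 and 1.26 CPM against 1.86, 1.42 and 0.876 CPM (log2 fold change 0.72 ± 0.47, SE, adjusted p = 0.242). Of the 15 called genes named in the paragraphs on these cells, not counting Cx3cr1, 13 kept the call with each library left out. In the 8 libraries of the higher run 6 kept it.

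Genes for making ribosomes rose together. Of 38 genes of ribosome biogenesis and Myc 28 were higher and 0 lower, with a median log2 fold change of 0.56, and of 41 cytoplasmic ribosomal protein genes 34 were higher and 0 lower, with a median of 0.52. With library totals these counts were 20 and 24, with only the 6 libraries compared 17 and 14, and in the 8 libraries of the higher run 1 and 1. Gnl3, the nucleolar GTPase nucleostemin, measured 25.6, 23.7 and 22.5 CPM in ND + sham and 59.2, 48.9 and 37.6 CPM in HFD + hIRI, a log2 fold change of 1.02 ± 0.18 (SE, adjusted p = 0.00467), and Mybbp1a, a nucleolar regulator of ribosomal RNA synthesis, rose by 0.77 ± 0.13 (SE). Rps29, a protein of the small subunit, went from 224, 206 and 215 CPM to 438, 299 and 349.9 CPM, with 0.75 ± 0.12 (SE, adjusted p = 0.00383), and Rpl39 rose by 0.86 ± 0.14 (SE). The ribosomal protein genes have processed pseudogenes that can share reads. Rps29 was also at 311, 278 and 294 CPM in HFD + sham and at 223, 233 and 231 CPM in ND + hIRI. Of 33 proteasome genes 17 were higher and 0 lower, with Psmd11, a subunit of the regulatory particle, at 0.87 ± 0.17 (SE). Those 17 were 5 without ND + sham replicate 2 or HFD + hIRI replicate 1, and 4 without ND + sham replicate 3 or with library totals. They were 3 with only the 6 libraries compared and 0 in the 8 libraries of the higher run.

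Cilia genes were lower as a group. Of 33 tested genes of primary and motile cilia 19 were lower and 0 higher, with a median of -0.62, and 31 had a negative value. Zmynd10, needed to assemble the dynein arms of motile cilia, measured 20.3, 20.0 and 23.6 CPM in ND + sham and 2.84, 6.16 and 8.58 CPM in HFD + hIRI, a log2 fold change of -1.86 ± 0.29 (SE, adjusted p = 0.00355). Dnah11, a dynein heavy chain, was scarce and fell from 2.23, 1.90 and 1.81 CPM to 0.155, 0.115 and 0.138 CPM, with -3.83 ± 0.51 (SE, adjusted p = 0.0023). Bbs2, a part of the complex that carries proteins into primary cilia, fell by 0.89 ± 0.15 (SE). Tubb2a and Tuba1c are tubulins, building blocks of microtubules, and may share reads with close relatives. Tubb2a measured 24.3, 28.6 and 23 CPM and 411, 191 and 119 CPM, with 3.25 ± 0.41 (SE, adjusted p = 0.002), and Tuba1c rose by 2.59 ± 0.44 (SE). Both tubulins and the actin gene Actb were counted in the list of claudins and cell junctions and are among its higher genes. Of the 36 genes in that list 18 were higher and 5 lower, with a median of 0.60. The 5 were 2 without ND + sham replicate 2, ND + sham replicate 3 or HFD + hIRI replicate 2. Cldn8, a claudin of the distal nephron, fell by 1.23 ± 0.19 (SE, adjusted p = 0.00369).

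Lysosomal and drug-handling genes were called in both directions, in part no more often than all genes. Neu1, the lysosomal sialidase (chromosome 17 from 34931253 to 34937297), measured 409, 366 and 461 CPM in ND + sham and 136, 165 and 182 CPM in HFD + hIRI, a log2 fold change of -1.36 ± 0.13 (SE, adjusted p = 0.000859). It was lower as well in HFD + sham, at 285, 267 and 259 CPM, and in ND + hIRI, at 298, 277 and 250.3 CPM. Ctsd, the protease cathepsin D, went from 770.3, 765 and 773 CPM to 1620.0, 1308 and 1146 CPM, with 0.82 ± 0.14 (SE, adjusted p = 0.00409). Of 39 genes of lysosome and autophagy 11 were higher and 7 lower, the latter near the 16.3% of all genes, the 11 being 5 without ND + sham replicate 2 and 6 without ND + sham replicate 3 or HFD + hIRI replicate 1, and with library totals 7 were higher and 11 lower. Among conjugation enzymes 9 of 35 were higher and 9 lower. Gsto1, a glutathione transferase of the omega class, rose from 28.7, 27.8 and 38.8 CPM to 65.9, 67.7 and 62.0 CPM, with 1.04 ± 0.12 (SE, adjusted p = 0.00176), with 57.6, 57.3 and 53.1 CPM in HFD + sham. Papss1, which makes the sulfate donor, fell by 1.13 ± 0.18 (SE). Of 35 cytochrome P450 genes 4 were higher, below the 19.1% of all genes, and 7 lower, near the 16.3%, and Cyp2j11 fell by 0.65 ± 0.13 (SE). The 7 were 4 without ND + sham replicate 1 or 2 and 3 without HFD + hIRI replicate 1, and the 4 were 2 without any ND + sham library, HFD + sham replicate 3 or HFD + hIRI replicates 1 or 2. The 17 genes named for growth, structure and organelles, E2f1 included, kept the call with each library left out, and 5 kept it in the 8 libraries of the higher run.

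**Figure D3:**
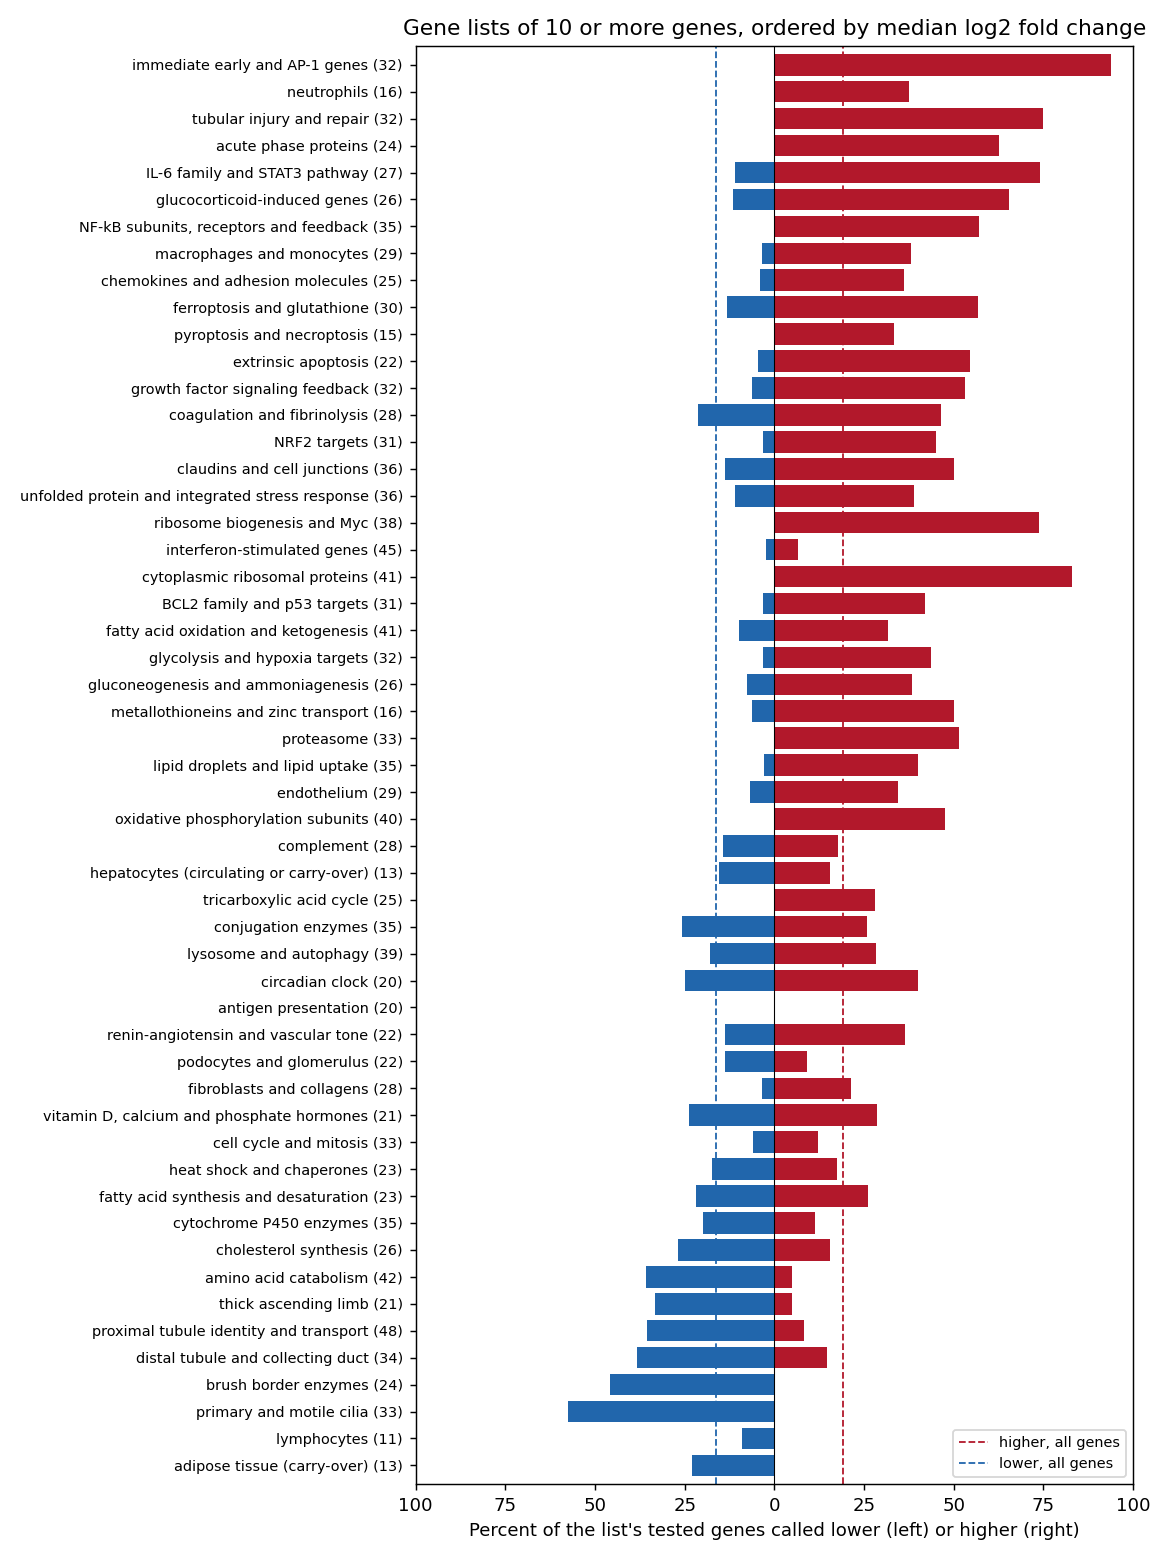
Share of each gene list called lower (blue bars, left) or higher (red bars, right) in HFD + hIRI, in percent of the list's tested genes, with the number tested in parentheses and the lists ordered by their median log2 fold change. The dashed lines mark the 19.1% and 16.3% of all genes, and the longest bars are those of immediate early genes with 30 of 32 higher and cilia with 19 of 33 lower.

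The size of the change differed among the HFD + hIRI kidneys, but not for every group of genes. Of the called genes, 1378 higher and 1012 lower ones differed by less than 1.5-fold between the highest and lowest HFD + hIRI library, whereas 161 and 124 differed 4-fold or more. Replicate 1 was the farthest from ND + sham in 2240 of the 2698 higher genes and in 1809 of the 2297 lower genes. The median log2 difference of the higher genes was 0.97, 0.60 and 0.43 in replicates 1, 2 and 3, and that of the lower genes -1.15, -0.75 and -0.58. Injury genes were graded, with mean log2 differences of 3.49, 2.16 and 1.35, as were immediate early genes, at 3.55, 2.50 and 1.38, and acute phase genes, at 3.45, 2.36 and 1.91. Gluconeogenesis and ammoniagenesis ran the other way, at 0.21, 0.33 and 0.42, and lipid droplet genes were level, at 0.44, 0.48 and 0.44. Proximal tubule genes were at -0.70, -0.31 and -0.27, and cilia genes at -1.13, -0.63 and -0.46.

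**Figure D4:**
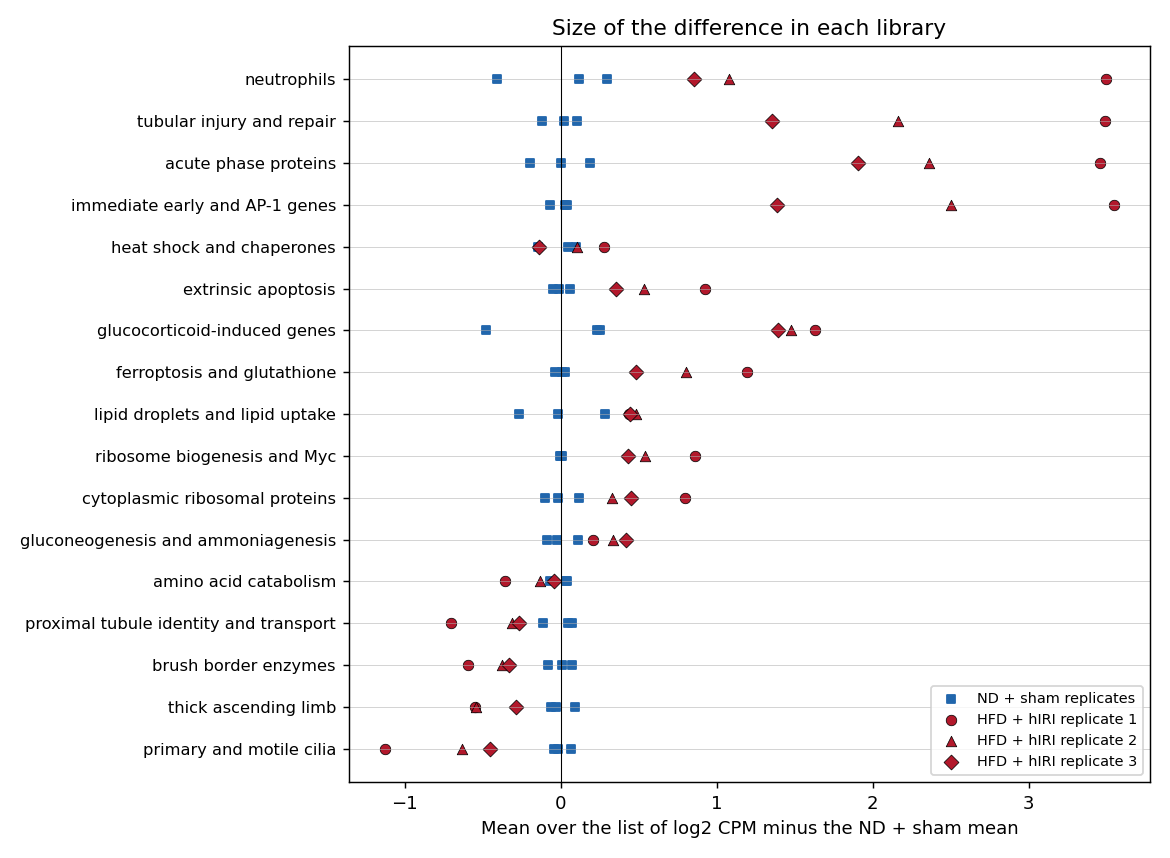
Mean over each of 17 gene lists of log2 CPM minus the ND + sham mean, for the 3 HFD + hIRI libraries (red symbols) and the 3 ND + sham libraries (blue squares). The red symbols spread widely for neutrophil, injury and immediate early genes, with replicate 1 farthest right, and lie together for lipid droplet and glucocorticoid-induced genes.

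Markers of tissues that can come with a kidney did not rise together. Of 13 adipose genes 0 were higher and 3 lower, and their sum was 233.8, 681.9 and 164.4 CPM in ND + sham and 155.2 to 280.8 CPM in HFD + hIRI, so that ND + sham replicate 2 stood apart. Cfd, the adipsin of fat cells, was at 17.0, 142 and 2.32 CPM in ND + sham and 1.60, 4.09 and 4.38 CPM in HFD + hIRI, and its groups overlapped. Car3, a carbonic anhydrase of fat and muscle, gave -2.50 and Pparg, the regulator of fat cell genes, -0.90 (-0.59 without ND + sham replicate 2) on the log2 scale. Without ND + sham replicate 2 or HFD + hIRI replicate 2, 0 adipose genes were lower. Without ND + sham replicate 2 the values were -1.51 for Cfd and -1.25 for Car3. Their part in other falls was not tested. Of the erythroid and platelet genes 6 were tested, with a sum of 52.2 to 58.9 CPM in ND + sham and 28.2 to 35.9 CPM in HFD + hIRI. Slc4a1, which intercalated cells also make, held most of the ND + sham sum. Without it the sum was higher in HFD + hIRI, so the lower sum does not show less blood cell RNA. Alas2, the erythroid enzyme of heme synthesis, rose by 0.81 ± 0.20 (SE) and Pf4, platelet factor 4, by 1.42 ± 0.50 (SE), while Slc4a1 and the platelet integrin Itga2b fell, the latter by 0.96 ± 0.21 (SE). The call of Pf4 was lost without any 1 of 9 libraries and that of Alas2 without ND + sham replicate 3. Among 3 tested genes of pancreas, muscle and gut, the elastase Cela1 fell by 0.75 ± 0.21 (SE), which was lost without ND + sham replicate 2 or 3 or HFD + hIRI replicate 1 or 2.

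The called hepatocyte genes were serpins, whose near-identical copies can share reads. Serpina1a and Serpina1b, forms of alpha 1 antitrypsin, rose by 1.42 ± 0.44 and 1.17 ± 0.36 (SE), and Serpina1c and Serpina3k fell by 1.81 ± 0.50 and 4.21 ± 1.32 (SE). Each of these calls was lost without at least 1 library of those compared, and without ND + sham replicate 1 or HFD + hIRI replicate 1 all 4 were. The adrenal gene Star, which brings cholesterol to steroid enzymes, rose by 0.97 ± 0.34 (SE, adjusted p = 0.0466), at 0.959, 1.12 and 0.888 CPM in ND + sham and 2.79, 1.84 and 1.24 CPM in HFD + hIRI. Its call was lost without any 1 of 9 libraries, with 0.63 (adjusted p = 0.198) without HFD + hIRI replicate 1. Of the 12 genes named for other tissues in these paragraphs, not counting Slc4a1, 1 kept the call with each library left out. In the 8 libraries of the higher run 0 kept it. Slc4a1, counted with the largest falls, kept the call in each of these fits.

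The median difference from ND + sham was farther from 0 for the combined comparison than for each insult alone in 40 of 56 lists. These comparisons share the ND + sham libraries with the combined one, so their values stand side by side and are not independent. ND + hIRI replicate 1 resembled the sham kidneys, with injury genes summing to 1780 CPM against 5347 and 6609 CPM in the other two ND + hIRI libraries and 1891 to 1935 CPM in ND + sham. The median log2 fold change of injury genes was 0.11 for HFD + sham, 0.81 for ND + hIRI and 2.43 for HFD + hIRI. Acute phase genes stood at 0.22, 1.34 and 2.0, immediate early genes at 0.69, 1.28 and 2.72, and glucocorticoid-induced genes at 0.76, 0.92 and 1.31. For ribosomal proteins the values were 0.25, 0.06 and 0.52, and for cilia genes -0.15, -0.22 and -0.62. Among the lists without that order, interferon-stimulated genes had 0.03, 1.27 and 0.53, and their ND + hIRI sums of 465, 2261 and 637 CPM were highest in replicate 2.

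A departure from the sum of both single differences was called for 2 of 14091 genes (0.0142%), while 1429 had an unadjusted p under 0.05. The interaction term tests whether hIRI changed a gene by another amount on HFD than on ND. On ND, Vdr measured 349.9, 295 and 292 CPM after sham surgery and 389, 368 and 410.4 CPM after hIRI, and on HFD 288, 294 and 269 CPM and 179, 157 and 162 CPM. It was thus higher after hIRI on ND and lower after hIRI on HFD, with an interaction of -1.09 ± 0.14 on the log2 scale (SE, adjusted p = 0.0461). Fgb was at 6.30, 9.68 and 13.2 CPM after hIRI on ND and at 2.99, 2.44 and 3.07 CPM after sham surgery on HFD, against the much higher HFD + hIRI levels given above, with an interaction of 4.90 ± 0.61 (SE, adjusted p = 0.0461). Of the fits with 1 library left out, the interaction of Vdr passed in 1 of 12, with values from -1.18 to -1.04, and that of Fgb in 2 of 12, with values from 4.36 to 5.25. Without ND + hIRI replicate 1 both had an adjusted p of 0.086, at -1.09 and 4.66. With the replicate number as a block neither passed, at -1.10 (adjusted p = 0.175) for Vdr and 4.80 (adjusted p = 0.314) for Fgb.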

How the data were processed

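Kidney RNA was extracted with TRIzol and sequenced as paired-end Illumina mRNA libraries, and the 12 libraries were grouped by their sample labels. The deposited counts are whole reads per gene that the authors made with STAR 2.7.10a and featureCounts of Subread 2.0.3 on mm10, after FastQC 0.11.5, and edgeR 3.42.4 is also in the submitters' processing notes. The sources used here do not give the annotation, how strand was treated or how low counts were filtered. The authors' log2 CPM values and their columns of comparisons (fold, log2 fold, p-value and FDR) were not used.

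Counts were analysed in R 4.3.3 with edgeR 4.0.16. All 12 libraries entered 1 model with a mean per group, TMM scaling and robust quasi-likelihood tests, and filterByExpr removed 0 genes. The SE is the size of the log2 fold change divided by the square root of the F statistic. The spread estimate is shared by the 4 groups, and totals of 20874584 to 29451344 counts limit the precision, most for the 54 genes with a count of 0 in at least 1 of the 6 libraries. For 3 libraries against 3 the smallest exact permutation p is 0.1, so no permutation test is given. The scripts were tested on simulated data. Promoters are RefSeq sequences on GRCm38.p6.

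The members of the comparison, the 56 gene lists and the tests were chosen with earlier results of these data known. The genes named are the 10 largest rises and falls (adjusted p under 0.05, a mean log2 CPM of at least 1, no overlap), the 5 rises and falls with the largest difference in CPM, up to 4 called members per list and direction or the 2 with the smallest p, in lists of other tissues also the 3 with the highest CPM, and genes that the study names for the kidney. Not every gene under the rule is described. Actb, Cx3cr1, Hsd11b1 and Nr3c1 are named without values and lie outside the counts of named genes. Havcr1, Socs3, S100a8, Umod, Alb and Cyp17a1 lie outside it and were chosen after their values were seen. Genes with near-identical copies may share reads. Alternatives were other scalings and filters, DESeq2 1.42.0, limma 3.58.1 (voom, with and without quality weights), the edgeR likelihood ratio and exact tests, subsets of libraries, a replicate block, the library number run as a covariate, stricter thresholds and each library left out in turn.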

Additional observations from a re-analysis of the deposited data

Results flagged for a closer look

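In 2 genes the effect of hIRI differed between the diets by a test of the difference itself, edgeR's interaction term adjusted over all genes. For Vdr the interaction was -1.09 on the log2 scale (adjusted p = 0.0461). All 3 ND + hIRI kidneys were above all 3 ND + sham kidneys, and all 3 HFD + hIRI kidneys were below all 3 HFD + sham kidneys. For Fgb the interaction was 4.90 (adjusted p = 0.0461), with a larger difference after hIRI on HFD than on ND in each HFD + hIRI kidney. Both calls rest on the full set of libraries, as most fits with 1 library left out ended them.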

How the results depend on the processing

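Counts of called genes moved with the libraries and the scaling, whereas the called genes named kept their direction. The counts of higher and lower genes were 1589 and 3405 with library totals, 1181 and 1027 with only the 6 libraries, and 176 and 178 in the higher run of 8 libraries. An adjusted p under 0.01 left 885 and 685, and a fold of at least 2 left 884 and 853. With 1 library left out they ran from 1542 to 3237 and from 1361 to 2787. With only 5 libraries, without HFD + hIRI replicate 1, which was added after seeing the data, they were 1476 and 1435. The replicate numbers do not pair the 2 groups compared: deviations of same-numbered ND + sham and HFD + hIRI libraries correlated at 0.0002, 0.0032 and -0.0248. In the 4 groups the correlations ran from -0.417 to 0.215, and those of ND + sham with ND + hIRI were all over 0.1, at 0.170, 0.196 and 0.197. With the replicate block 2374 and 2026 genes were called. The interaction count of 2 was 8 by the likelihood ratio test, 37 by DESeq2, 0 by limma voom, 4 with quality weights, 0 with the replicate block, the library number run as a covariate, the higher run alone or an adjusted p under 0.01, and 0 to 2 with 1 library left out. Of the 181 called genes named, none changed direction, and 176 kept the call with library totals, 170 with limma voom, 176 with the block, 174 with the covariate, 144 at an adjusted p under 0.01, 164 to 181 with 1 library left out and 77 in the higher run. Among named genes that were not called, Gpx4 turned from 0.16 to -0.013 with library totals. The cause was not tested beyond the smaller number of libraries or the threshold. The exact test and the fit of the 6 libraries give no interaction.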
